A study of Homo sapiens with 12 samples.

Results

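FOX2 and TDP43 were compared in wild-type (WT) H9 cells, by setting 2 FOX2 libraries against 2 TDP43 libraries of individual-nucleotide crosslinking and immunoprecipitation (iCLIP). These are 4 of the 12 libraries of the series, chosen by protein and genotype from the sample labels. The others recovered hnRNP M, or came from P-KO cells, whose source label reads SPA PKO; whether the P-KO line is 1 clone is not given in the sources used here. H9 is an established human embryonic stem cell line. All cells, WT and P-KO, were irradiated with ultraviolet light at 400 mJ per square centimetre, lysed and sonicated. RNA was then recovered with an antibody against RBFOX2 (written FOX2 here, Bethyl) or against TDP43 (Proteintech), trimmed with micrococcal nuclease and copied into cDNA whose end marks the crosslinked nucleotide. No untreated or antibody-free library was analysed here, so no background of the method is subtracted. The series design calls the 2 libraries of a protein and genotype biological replicates.

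FOX2 belongs to a family of splicing factors that recognise GCAUG and closely related elements through a single RNA recognition motif. Where it binds in an intron relative to an alternative exon is known to influence whether the exon is kept. TDP43 carries a pair of RNA recognition motifs, prefers stretches rich in GU, and is known for binding deep inside long introns, where it represses cryptic exons. Both are mostly nuclear, and both contact unspliced RNA.

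The deposited lists name each position by an Ensembl transcript and, for intronic positions, an intron number. The files do not pair these transcripts with gene names, and neither genome nor annotation of the hg19 build was used here, so transcripts are given by identifier and by the hg19 range of their listed positions. For the same reason the H9 label was not checked against stem cell markers. Intron numbers in the lists rose with the chromosome coordinate in 9816 of 9816 transcripts of the plus strand and in 9846 of 9846 of the minus strand. On the minus strand, intron 1 of the lists is therefore the last to be transcribed.

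A window count is the count the authors listed at a position, taken from the highest count first and dropping any position closer than 11 nt on the strand. Window counts were 218733 and 288698 in FOX2 replicates 1 and 2, and 207788 and 282997 in TDP43 replicates 1 and 2. They lay on 79311 and 98444 positions for FOX2 and on 65074 and 90814 for TDP43. A position held on average between 2.76 and 3.19 counts, so most positions rest on very few molecules or reads. The lists hold no count under 2, and a transcript or intron absent from a list is called listed at 0, and no fold is printed for it. Replicates of a protein differed by more than sampling noise across transcripts, at chi-square values of 7.95 for FOX2 and 9.85 for TDP43 per degree of freedom, and none was treated as a duplicate. The same measure between the proteins was 16.6 for the libraries numbered 1 and 18.7 for those numbered 2.

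Both proteins were found mainly in introns. In FOX2, 89.6% (95% Clopper-Pearson interval 89.4 to 89.7) and 87.4% (87.3 to 87.5) of window counts were intronic. In TDP43 the shares were 84.2% (84.1 to 84.4) and 79.7% (79.6 to 79.9). These intervals cover counting error only. The group means were 88.5% ± 1.53 (SD, n = 2) for FOX2 and 82.0% ± 3.18 (SD, n = 2) for TDP43, a difference of 6.52 percentage points. The groups did not overlap, and the two-sided exact permutation test gave p = 0.3333, the smallest value that 2 against 2 libraries allow. In P-KO the shares were 85.5% and 84.2% in FOX2 and 89.7% and 82.4% in TDP43, where the groups overlapped. Without mitochondrial and unplaced contigs the WT difference was 3.616 points, and with every listed position counted, spacing aside, it was 22.4 points. Among intronic counts of the plus strand, where intron 1 is the first to be transcribed, intron 1 held 30.7% and 30.5% in FOX2 and 33.6% and 35.1% in TDP43.

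At single positions, libraries of the same protein resembled each other far more than libraries of different proteins. Of intronic positions with a count of at least 10, 76.5% of 595 in FOX2 replicate 1 had a listed position within 10 nt in FOX2 replicate 2, and 60.4% of 1291 were found the other way round. For TDP43 the shares were 64.1% of 909 and 67.4% of 826. Across the proteins, between 7.13% and 23.1% were found. At a count of at least 5, the shares ranged from 34.2% to 43.7% within a protein and from 4.64% to 11.1% between proteins. Over all positions they were between 5.26% and 7.92% within a protein and between 1.11% and 2.46% between proteins, so positions of low count rarely recurred even between replicates. The replicate number moved with the shares between proteins. FOX2 replicate 2 shared 12.7% of its positions of at least 10 counts with TDP43 replicate 2 and 7.13% with TDP43 replicate 1. TDP43 replicate 2 shared 23.1% with FOX2 replicate 2 and 10.0% with FOX2 replicate 1. The part of any shared handling in these values was not tested.

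**Figure D1:**
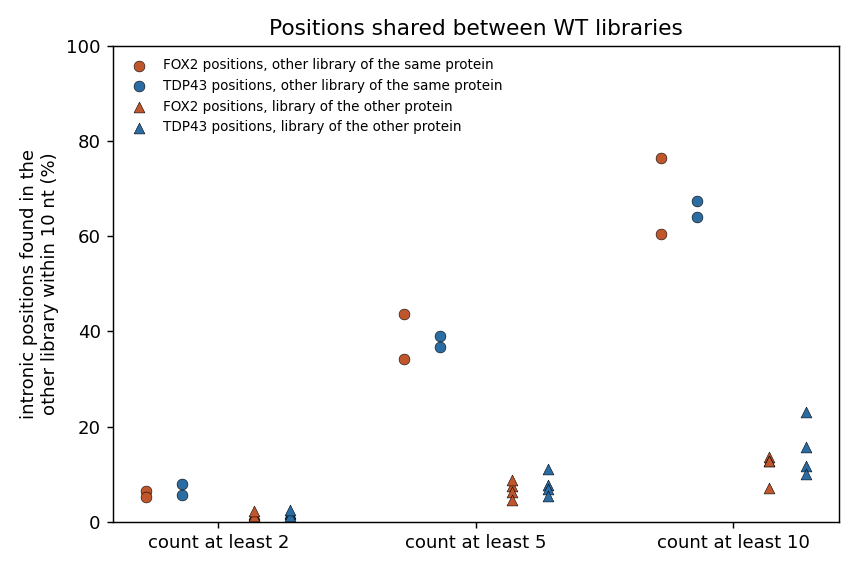
Percentage of intronic positions of a WT library that had a listed position within 10 nt in another WT library (vertical axis), for positions with counts of at least 2, 5 or 10 (horizontal axis); circles compare libraries of the same protein and triangles libraries of different proteins. At a count of at least 10, the circles lie between 60.4% and 76.5% and the triangles between 7.13% and 23.1%.

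The transcripts favoured by each protein were then sought. Levels of transcripts are in window counts per 1000000 of a library (CPM). Of 37233 transcripts listed in the 4 libraries, 4692 had enough counts to be tested, and 59 of them (1.26%) differed between the proteins. FOX2 was higher on 35 (0.746% of those tested) and TDP43 on 24 (0.512%), by edgeR's quasi-likelihood test with Benjamini-Hochberg adjustment and a threshold of 0.05. Adjusted p-values of the 59 lay between 0.0353 and 0.0494, just under that threshold. At an unadjusted p under 0.05 there were 787 transcripts (16.8%). None of the 59 overlapped between the proteins in CPM, and neither did 2317 of all 4692 (49.4%). The 35 lay at 34 loci and the 24 at 22, since some transcripts overlap. The balance of directions was not stable: without FOX2 replicate 2 it was 136 for FOX2 against 186 for TDP43, and in a fit of all 12 libraries 78 against 12, with 30 of the 35 and 10 of the 24 among the calls. Without TDP43 replicate 1 no transcript passed in edgeR (873 had an unadjusted p under 0.05), and between 102 and 322 passed with any other single library left out. DESeq2 called 335 (7.14%), 196 higher in FOX2 (4.18%) and 139 in TDP43 (2.96%). No transcript passed when the number of positions was tested with edgeR in place of counts (300 had an unadjusted p under 0.05).

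**Figure D2:**
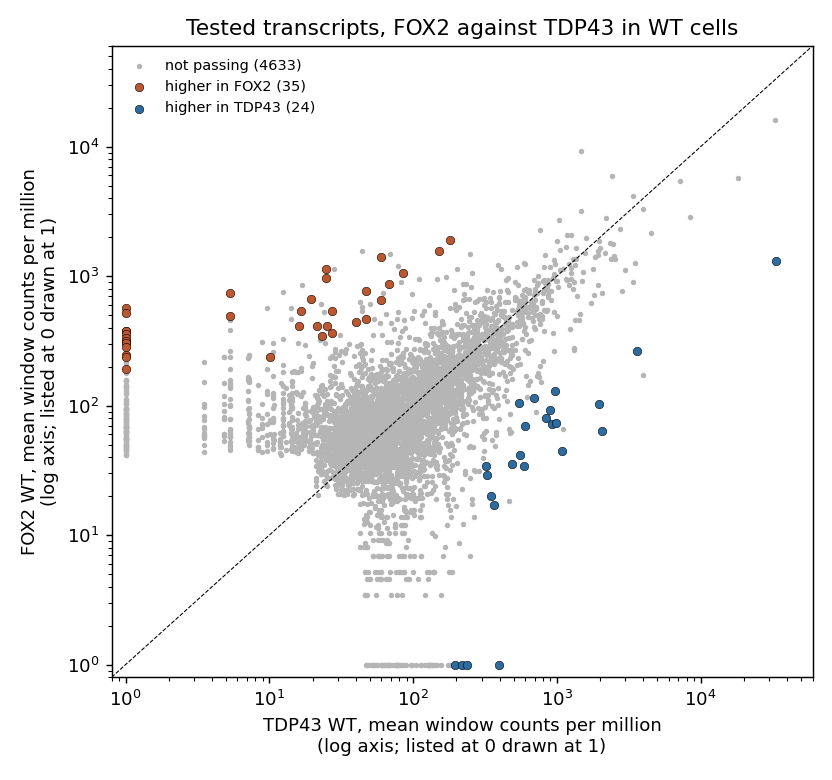
Mean CPM of each of the 4692 tested transcripts in TDP43 WT (horizontal, log axis) and FOX2 WT (vertical, log axis), with values listed at 0 drawn at 1; orange points are the 35 transcripts higher in FOX2, blue points the 24 higher in TDP43, grey points the rest, and the dashed line marks equal levels. Orange points with 0 in TDP43 number 13 and blue points with 0 in FOX2 number 4.

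Several transcripts of the lists overlap on a strand, and a position carries only 1 of their names. Counts listed under other names inside a transcript's own range, or in the locus formed by all overlapping transcripts, are therefore given below where they bear on a transcript. With transcripts merged into loci, 31 of the 35 and 21 of the 24 lay in loci that passed in the same direction (edgeR). The other protein was listed at 0 in both libraries for 13 of the 35 transcripts higher in FOX2, and for 4 of the 24 higher in TDP43. Under other names it had counts inside the same range in 8 of the 13 and 1 of the 4, and in the merged locus in 11 and 2. Among the remaining transcripts, the ratio of mean CPM ranged from 10.0 to 139 (median 17.8) for FOX2 and from 5.20 to 32.4 (median 13.4) for TDP43. A common biological coefficient of variation of 0.526 was fitted, and the correlation of replicates across tested transcripts, which are not independent, was 0.708 for FOX2 and 0.697 for TDP43 on the log2 CPM scale.

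Several transcripts favoured by FOX2 were listed mainly without intron numbers, that is, outside introns as the lists annotate them. ENST00000326427.6, at chr2:231742728-231743823 on the plus strand, had window counts of 86 and 212 in FOX2 and was listed at 0 in both TDP43 libraries (adjusted p = 0.0353). Its level in FOX2 was 564 ± 241 CPM (SD, n = 2). Its highest position, 231743790, had 29 and 125 counts in FOX2, so a single window carried much of the signal in replicate 2. Here and below, the count given at a position is the highest listed within 5 nt of it in each library. ENST00000574671.1, at chr17:79478379-79478784 on the minus strand, had 87 and 104 counts in FOX2 on only 7 positions and 0 and 0 in TDP43. ENST00000356978.4, at chr14:90868014-90873970 on the plus strand, had 69 and 90 counts in FOX2, or 314 ± 2.62 CPM (SD, n = 2), and was listed at 0 in TDP43. ENST00000216281.8, at chr14:102547461-102548538 on the minus strand, had 79 and 61, again against 0 and 0. ENST00000451311.2 (chromosome X, plus strand) had 49 and 112 against 0 and 0, with 3.11% of its FOX2 counts in an intron. Merging overlapping names left both TDP43 libraries at 0 at the loci of ENST00000326427.6 and ENST00000216281.8. At the locus of ENST00000574671.1 TDP43 had 11 and 9 counts against 105 and 104 in FOX2, at that of ENST00000356978.4 3 and 0 against 72 and 98, and at that of ENST00000451311.2 0 and 6 against 53 and 117.

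TDP43 counts were low but listed in 3 further transcripts, picked after their values were seen because under 10% of their FOX2 counts were intronic. ENST00000282561.3, at chr6:121760414-121770748 on the plus strand, had 347 and 198 counts in FOX2 and 3 and 10 in TDP43, a ratio of mean CPM of 45.7. ENST00000337198.5 had 190 and 190 against 7 and 17, and ENST00000366607.4 had 89 and 91 against 7 and 6. Of the few TDP43 counts, 69.2% were intronic in ENST00000282561.3, 20.8% in ENST00000337198.5 and 100% in ENST00000366607.4. The ratios therefore set FOX2 counts mainly outside introns against TDP43 counts that were partly or wholly intronic. In all, 8 of the 35 transcripts higher in FOX2 and 9 of the 24 higher in TDP43 had under 10% of the higher protein's counts in introns. Over all tested transcripts with a higher mean in the same protein, the shares were 2.80% for FOX2 and 5.05% for TDP43. No test of these shares was made.

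Most transcripts favoured by FOX2 were bound in introns, and the median intronic share of the 35 was 99.3%. Over all 2394 tested transcripts with a higher mean in FOX2 the median was 100%, so a high intronic share was not particular to the 35. ENST00000294618.7, at chr19:11310121-11369268 on the minus strand, had 94 and 176 counts in FOX2 and none listed in TDP43. Its intron 26 held 96.7% of these counts. ENST00000251527.5, at chr7:158523921-158621360 on the minus strand, was the most heavily covered of the 16 passing transcripts named for FOX2 by fold or p, with 247 and 479 counts in FOX2 against 13 and 16 in TDP43. That is 1394 ± 375 CPM against 59.6 ± 4.26 CPM (SD, n = 2 each), a log2 fold change of 4.48 with a standard error of 0.46 (adjusted p = 0.0353). Its intron 9 held 71.2% of its counts, and the window at position 158550393 had 23 and 126 in FOX2 against 0 and 5 in TDP43. ENST00000481585.1, at chr3:149663194-149686085 on the minus strand, had 249 and 235 counts against 3 and 10. Its log2 fold change was 5.12 ± 0.55 (SE), and its FOX2 counts were spread over 87 positions of 1 intron. ENST00000540006.1, at chr13:111298786-111315783 on the minus strand, had 127 and 216 counts against 3 and 7, of which intron 7 held 98.8%. FOX2 and TDP43 libraries did not overlap, as the rule for naming required. TDP43 counts under other names were seen inside the range of ENST00000251527.5, 25 and 81 against 11 and 8 in FOX2, and its merged locus had a log2 fold change of 2.35 (adjusted p = 0.0214). The locus of ENST00000481585.1 held no other transcript, and that of ENST00000540006.1 had 134 and 229 counts in FOX2 against 11 and 25.

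The other named transcripts with introns bound by FOX2 were listed at 0 in TDP43 and carried between 44 and 142 counts per FOX2 library. They were ENST00000416152.1 and ENST00000491507.1 on chromosome 3, ENST00000450766.1 on chromosome 13, ENST00000576217.1 on chromosome 16, ENST00000556273.1 on chromosome 12 and ENST00000494465.1 on chromosome 2. ENST00000450766.1 overlaps a second passing transcript, ENST00000357389.3, at chr13:114535671-114566354, so the 2 are not separate observations. With overlapping names merged, each of the 6 loci held TDP43 counts. They were 0 and 2 at the locus of ENST00000491507.1 and 7 and 16, against 188 and 300 in FOX2, at that of ENST00000450766.1. The locus of ENST00000494465.1 had 43 and 83 in TDP43 against 195 and 467 in FOX2 (log2 fold change 2.24), that of ENST00000416152.1 4 and 14 against 76 and 134 (3.41), and that of ENST00000556273.1 5 and 14 against 109 and 166 (3.72). The locus of ENST00000576217.1 had 25 and 35 against 70 and 153 and did not pass (1.73, adjusted p = 0.0637). ENST00000551077.1, at chr15:25312560-25315042 on the plus strand, had 106 and 172 counts in FOX2 and 4 and 4 in TDP43, a log2 fold change of 4.93 ± 0.51 (SE). Its merged locus had 2140 and 3682 counts in FOX2 and 823 and 815 in TDP43, and did not pass (log2 fold change 1.65, adjusted p = 0.0516). It lies in the Prader-Willi region of chromosome 15, from which the SPA noncoding RNAs named in the P-KO label are transcribed.

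Of the transcripts that passed, TDP43 was highest on a short stretch of chromosome 1. ENST00000458748.1, listed at chr1:109642843-109643100 on the plus strand without an intron number, had 7849 and 8309 window counts in TDP43 and 397 and 233 in FOX2. That was 3.36% ± 0.595 of all TDP43 window counts against 0.131% ± 0.0713 of FOX2 window counts (SD, n = 2 each). The log2 fold change was -4.79 with a standard error of 0.61 (adjusted p = 0.0353). The window at position 109642919 had 2496 and 868 counts in TDP43 and 155 and 26 in FOX2. The next highest of the 24, ENST00000483437.1, stood at 3591 ± 423 CPM in TDP43 (SD, n = 2).

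Counts on intronic transcripts favoured by TDP43 were mostly concentrated in a single intron, as were counts on those favoured by FOX2. How common this was over all tested transcripts was not computed. ENST00000250894.4, at chr16:1756980-1819245 on the plus strand, had 572 and 380 counts in TDP43 against 11 and 22 in FOX2. Its log2 fold change of -5.04 ± 0.56 (SE) corresponds to a 32.4-fold ratio of mean CPM. Its intron 4 held 97.9% of the counts, spread in TDP43 over 130 positions of the transcript. ENST00000325212.6, at chr11:93403737-93458828 on the plus strand, had 330 and 170 against 12 and 10, with 98.0% in intron 19. In contrast to ENST00000250894.4, it was narrow. All listed positions of its intron 19 lay within chr11:93454678-93454957, and the window at position 93454937 had 114 and 84 counts in TDP43. ENST00000330317.2, at chr21:44264185-44293639 on the minus strand, had 419 and 546 against 25 and 27, and was the most even between replicates of the named transcripts higher in TDP43, at 1973 ± 61.6 CPM (SD, n = 2). ENST00000263620.3 (chromosome 19, plus strand) had 111 and 182 against 6 and 12, with 97.6% in intron 3. These 4 were named for not overlapping, and their merged loci gave log2 fold changes between -4.84 and -3.80. In P-KO, ENST00000250894.4 passed (edgeR adjusted p = 0.0318). ENST00000330317.2, ENST00000325212.6 and ENST00000263620.3 did not (edgeR adjusted p = 0.188, 0.0671 and 0.153). ENST00000330317.2 also fell short with the 8 FOX2 and TDP43 libraries (edgeR adjusted p = 0.0841).

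ENST00000483437.1, at chr3:160229029-160233027 on the minus strand, had 684 and 1101 counts in TDP43 but also 63 and 69 in FOX2, and its highest position, 160232891, had 285 and 197 in TDP43 and 31 and 18 in FOX2. Counts within 5 nt of this position were thus listed for both proteins, at different levels. Whether they fell on the same nucleotide was not examined. It overlaps ENST00000334256.4, whose TDP43 counts lay mainly outside introns, with 103 and 67 counts in TDP43 against 3 and 6 in FOX2. Of these few FOX2 counts, 66.7% were intronic. A similar overlapping pair lay on the minus strand of chromosome 19, at chr19:47731735-47735626. There ENST00000300880.7 had 75 and 121 counts in TDP43, ENST00000449228.1 had 59 and 53, and both were listed at 0 in FOX2. ENST00000558318.1 on chromosome 16 had 48 and 46 in TDP43, and was also listed at 0 in FOX2. Merged with overlapping names, the chromosome 19 locus had 134 and 174 counts in TDP43 and none in FOX2. The chromosome 16 locus had 635 and 597 in TDP43 and 255 and 227 in FOX2 and did not pass (log2 fold change -1.49, adjusted p = 0.0614).

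Some transcripts higher in TDP43 had TDP43 counts mainly outside introns. ENST00000462349.1, at chr21:44479480-44479825 on the minus strand, had 221 and 224 counts against 15 and 22. ENST00000359867.3 on chromosome 22 had 111 and 165 against 10 and 11, and ENST00000379441.3 on chromosome 12 had 85 and 82 against 5 and 5. These are sums over the whole transcript. On ENST00000359867.3, 81.0% of the few FOX2 counts were intronic, against 6.52% of the TDP43 counts. On ENST00000379441.3 the shares were 20% and 3.59%. Merging brought the log2 fold change of ENST00000462349.1 from -3.74 to -1.75 (312 and 355 against 82 and 141). That of ENST00000359867.3 went from -3.81 to -2.51 (138 and 205 against 23 and 43), and that of ENST00000379441.3 from -4.17 to -3.54. These transcripts did not pass in P-KO (edgeR adjusted p = 0.253, 0.0745 and 0.0648). The mitochondrial ENST00000361453.3, named after its values were seen, had 116 and 117 counts in TDP43 against 8 and 10 in FOX2. ENST00000441162.1 on chromosome 22 differed from all of these in form. Its 42 and 66 TDP43 counts lay on 54 positions of its intron 10, none with a count above 2, and it was listed at 0 in FOX2. Inside the same range, overlapping transcripts held 86 and 219 counts in FOX2 and 55 and 36 in TDP43. The merged locus had 193 and 338 in FOX2 and 202 and 291 in TDP43, with a log2 fold change of -0.04 (adjusted p = 0.983). The call on the transcript was thus lost when overlapping names were merged. It was also lost with the 8 FOX2 and TDP43 libraries (adjusted p = 0.128) and with all 12 (adjusted p = 0.130).

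**Figure D3:**
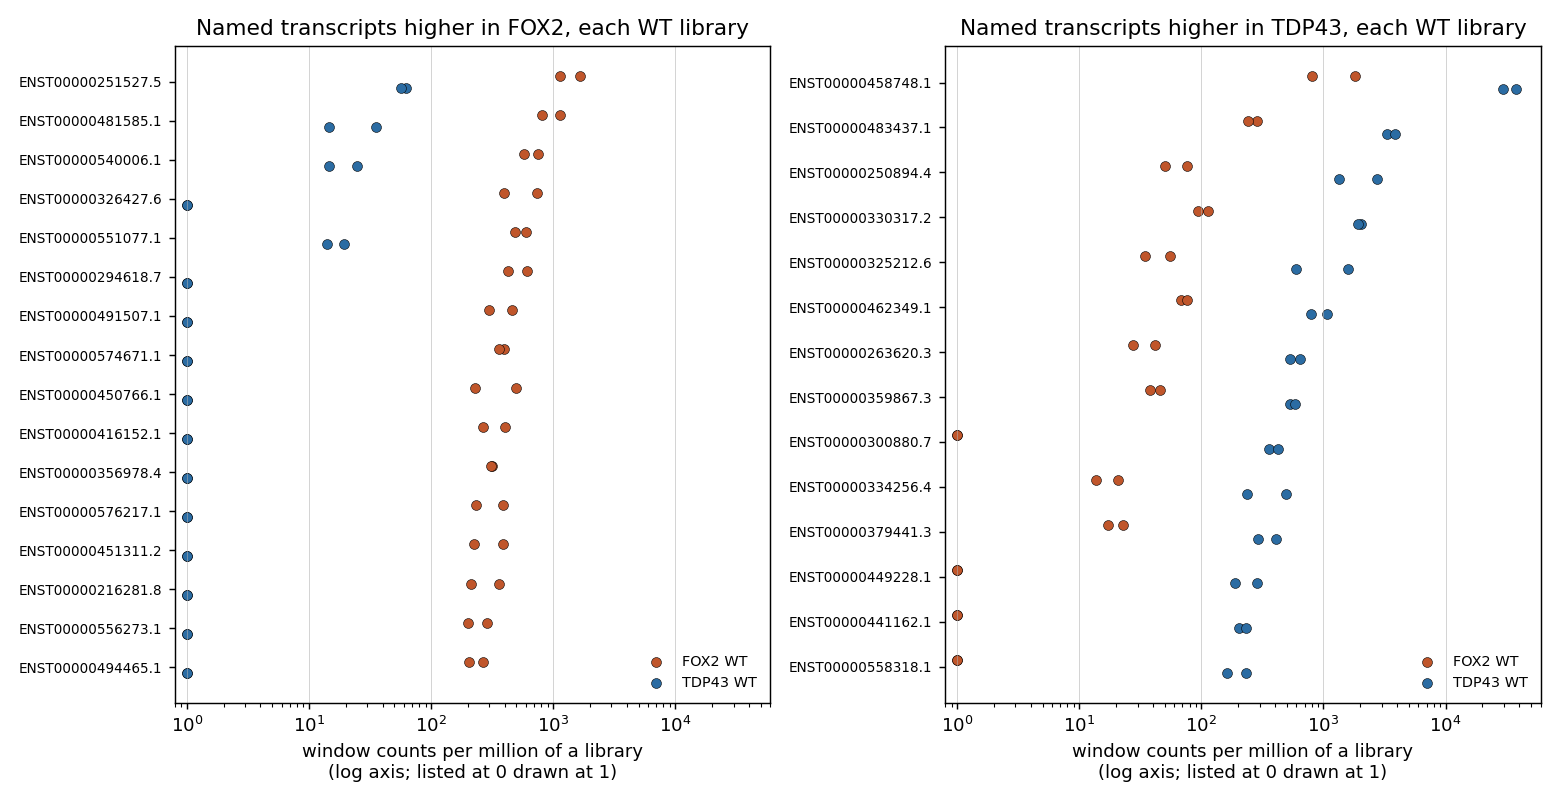
CPM of each WT library (horizontal, log axis) for the named transcripts higher in FOX2 (left) and higher in TDP43 (right), 1 point per library, with values listed at 0 drawn at 1; orange is FOX2 and blue is TDP43. The separation of the colours follows from how the transcripts were chosen; the spread between the 2 libraries of a protein does not. TDP43 is at 0 for 12 of the 16 transcripts at left, which were ranked by fitted fold.

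Within a transcript, the favoured protein did not lead in every intron. Among the 35 transcripts higher in FOX2, 21 had counts in 2 or more introns, and FOX2 was higher in every one of those introns in 8. Among the 24 higher in TDP43, 14 had counts in 2 or more introns, and TDP43 was higher throughout in 2. Sums of counts over the 2 libraries of a protein were compared, without a minimum count, and equal sums were taken as not higher. Some of these introns therefore rest on very few counts. Intron 4 of ENST00000542575.2, for one, had 2 and 0 in FOX2 and 0 and 0 in TDP43. A single intron held over 50% of the window counts in 25 of the 31 transcripts higher in FOX2 with intron counts. The same held in 14 of the 20 higher in TDP43. This share was not computed over all tested transcripts. ENST00000288398.6, at chr15:63334920-63358203 on the plus strand and named after its values were seen, was among those with FOX2 higher in 4 of 4 introns. It had 405 and 563 counts in FOX2 and 49 and 36 in TDP43, and its intron 9 held 48.7%.

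The same comparison in the P-KO libraries, which had no part in choosing the 59 transcripts, gave the same direction for nearly all. P-KO window counts were uneven, at 232174 and 648651 in FOX2 replicates 1 and 2 and 172613 and 292694 in TDP43. A position held on average 3.84 and 5.76 counts in FOX2 P-KO and 3.02 and 3.02 in TDP43 P-KO. Whether this bears on the numbers passing in either direction was not tested. Of the 35 transcripts higher in FOX2 in WT, 33 were tested in P-KO, all 33 were higher in FOX2 there, and 32 passed the threshold (edgeR, fitted on the P-KO libraries alone). Over all 4696 transcripts tested in P-KO, 6.52% passed, 6.07% as higher in FOX2 and 0.447% as higher in TDP43. Of the 3661 transcripts tested in both genotypes, 6.23% passed as higher in FOX2 in P-KO. Of the 24 higher in TDP43 in WT, 23 were tested in P-KO, 22 were higher in TDP43 and 7 passed, against 0.546% of the 3661. No transcript passed in the opposite direction. The 7 included ENST00000458748.1, with 2954 and 7417 counts for TDP43 against 83 and 229 for FOX2 (adjusted p = 0.0264), and ENST00000250894.4, with 147 and 334 against 7 and 30 (adjusted p = 0.0318). ENST00000483437.1 did not pass in P-KO, where it had 163 and 1198 counts in TDP43 and 82 and 416 in FOX2 (adjusted p = 0.256). The mitochondrial ENST00000361453.3 had 15 and 43 in TDP43 and 22 and 59 in FOX2 (adjusted p = 0.926). Its level was 117 ± 42.4 CPM in TDP43 P-KO and 92.9 ± 2.69 CPM in FOX2 P-KO (SD, n = 2 each), with a fitted log2 fold change of 0.158.

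Both transcripts higher in FOX2 that were not tested in P-KO had too few counts there. ENST00000551077.1, in the Prader-Willi region, kept 0 and 8 counts in FOX2 P-KO, and TDP43 P-KO listed none. ENST00000491507.1, at chr3:75786884-75834358 on the minus strand, went from 101 and 86 counts in FOX2 WT to 0 in each of the 4 P-KO libraries. The difference of the FOX2 and TDP43 contrast between WT and P-KO was also tested. No transcript of 6562 passed by edgeR's interaction test on the 8 libraries, 471 had an unadjusted p under 0.05, and the smallest adjusted p was 0.694. That test was made with edgeR alone.

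**Figure D4:**
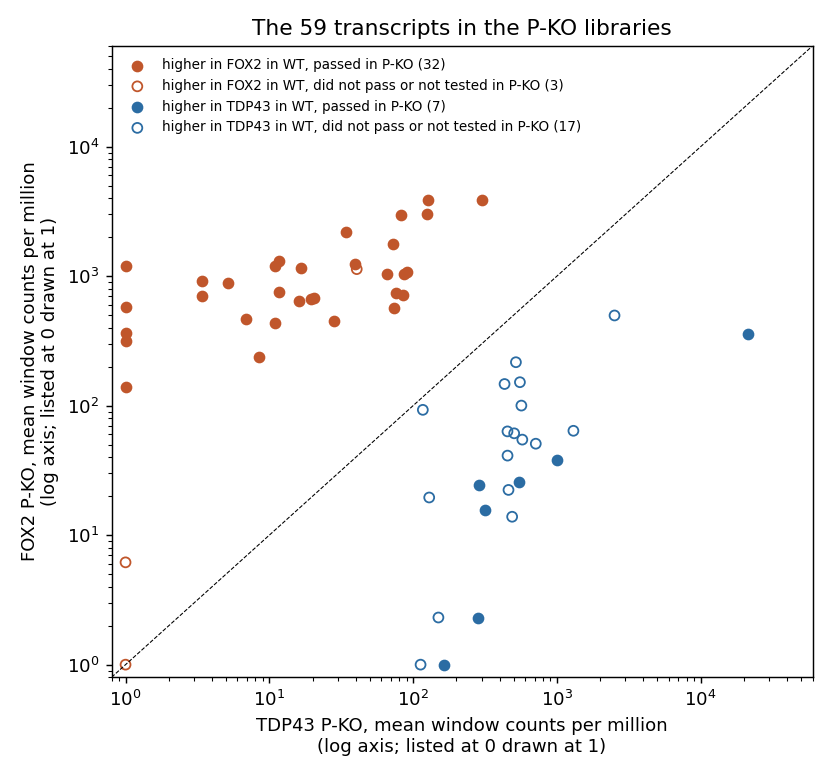
Mean CPM in TDP43 P-KO (horizontal, log axis) and FOX2 P-KO (vertical, log axis) for the 59 transcripts that differed in WT, with values listed at 0 drawn at 1 and the dashed line at equal levels; orange marks transcripts higher in FOX2 in WT and blue those higher in TDP43 in WT, filled where the P-KO test passed in the same direction. Filled points number 32 in orange and 7 in blue.

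Introns were tested one by one as well. Of 4215 introns tested in WT, 0 (0.0%) passed edgeR's quasi-likelihood test after adjustment, 840 (19.9%) had an unadjusted p under 0.05, and the smallest adjusted p was 0.0994. DESeq2 called 406 (9.63%), with 247 (5.86%) higher in FOX2 and 159 (3.77%) in TDP43. In P-KO, edgeR called 902 of 4084 introns (22.1%), 693 (17.0%) higher in FOX2 and 209 (5.12%) in TDP43. Introns at an unadjusted p under 0.05 in WT were followed into these libraries. Of 456 higher in FOX2, 391 were tested in P-KO, 375 had the same direction and 304 passed, against 14.9% of the 2980 introns tested in both genotypes. Of 384 higher in TDP43, 264 were tested, 232 had the same direction and 60 passed, against 3.99%. None passed in the opposite direction. The interaction test called 0 of 6203 introns, with 440 at an unadjusted p under 0.05 (edgeR).

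Introns higher in FOX2 at an unadjusted p under 0.05 in WT and called in P-KO were ranked by count. Some of the highest are described next, and were chosen after their values were seen. Intron 1 of ENST00000513200.3, at chr5:93491235-93697810 on the minus strand, had 1321 and 1674 counts in FOX2 and 715 and 399 in TDP43. Both proteins were thus abundant there, and FOX2 was 2.28-fold higher per 1000000 intronic window counts (WT adjusted p = 0.248, P-KO adjusted p = 0.0229). Intron 3 of ENST00000338316.4 (chromosome 5, plus strand) had 400 and 681 against 97 and 90. The widest gap was in intron 10 of ENST00000397113.2 (chromosome 8, minus strand), with 258 and 500 counts in FOX2 and 0 and 10 in TDP43. In P-KO, FOX2 had 508 and 1813 counts there and TDP43 had 7 and 0 (WT adjusted p = 0.0994, P-KO adjusted p = 0.0137). Intron 22 of ENST00000349607.4 (chromosome 3, minus strand) had 210 and 622 against 3 and 21. Intron 4 of ENST00000400473.2, at chr18:20794170-20814323 on the plus strand, had 142 and 411 against 24 and 6. Intron 2 of ENST00000419057.1, on chromosome 9, had 288 and 520 against 25 and 49, and its transcript was among the 35. Both proteins were also abundant in intron 1 of ENST00000442316.1 (chromosome 2, plus strand), with 405 and 469 against 183 and 200. The same held for intron 36 of ENST00000280886.6 (chromosome 10, minus strand), with 343 and 339 against 161 and 175. FOX2 was 2.03-fold and 1.82-fold higher there, narrower gaps than in intron 1 of ENST00000513200.3.

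Among introns higher in TDP43 and chosen in the same way, intron 3 of ENST00000417523.1 had the highest counts, with 1269 and 506 in TDP43 against 63 and 8 in FOX2. All its listed positions lay within chr7:98479365-98479461 on the plus strand. Intron 4 of ENST00000250894.4 had 568 and 364 against 0 and 13, and was listed at 0 in both FOX2 P-KO libraries, where TDP43 had 129 and 319. Intron 8 of ENST00000226319.6, at chr4:129778964-129782293 on the plus strand, had 166 and 253 against 9 and 9, with a log2 fold change of -4.55 ± 0.41 (SE). Intron 17 of ENST00000314167.4, at chr4:878745-882247 on the minus strand, had 132 and 149 against 3 and 3, with -5.54 ± 0.46 (SE), and gave the smallest unadjusted p of the introns described here (8.7e-05, edgeR, adjusted p = 0.0994). Intron 1 of ENST00000332582.4, on chromosome X, had 275 and 244 against 29 and 0. In WT it was passed by neither edgeR (adjusted p = 0.219) nor DESeq2 (adjusted p = 0.496). Intron 4 of ENST00000390654.3 on chromosome 5 had 189 and 81 against 3 and 3, and intron 18 of ENST00000393376.1 on chromosome 7 had 108 and 82 against 0 and 4. FOX2 counts were low in most of the introns just described, and highest in those of ENST00000417523.1 and ENST00000332582.4. Other introns chosen in the same way also held FOX2 counts. Intron 1 of ENST00000482119.1 had 55 and 21 in FOX2 against 137 and 263 in TDP43. Intron 2 of ENST00000599564.1 had 13 and 19 against 196 and 193.

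Some transcripts carried introns favoured by FOX2 beside introns favoured by TDP43. Of 716 transcripts with at least 2 tested introns, 41 (5.73%) had introns differing in opposite directions at an unadjusted p under 0.05 in WT. In 6 of the 41 (14.6%), introns were also called in both of those directions in P-KO. The adjusted p-values of these introns in WT were between 0.0994 and 0.240, so none passed there, and those in P-KO were between 0.00692 and 0.0428. The share of the 716 transcripts with introns called in both directions in P-KO was not computed. Nor was the number of the 41 with such introns tested in P-KO, so the 6 have no background to be read against. ENST00000359947.4 (chromosome 1, plus strand) had 173 and 532 counts in FOX2 against 28 and 35 in TDP43 in intron 7 (chr1:44044893-44053863). In its intron 11 (chr1:44058601-44063313) FOX2 had 0 and 3 and TDP43 had 94 and 76. The order of the proteins was thus exchanged between introns of 1 transcript, which is how the 6 were chosen. ENST00000475622.1 (chromosome 5, minus strand) had 186 and 247 counts in FOX2 against 5 and 0 in intron 8. Its introns 4 and 15 had 0 and 6 against 51 and 55, and 3 and 0 against 49 and 38. ENST00000303400.4 (chromosome 4, plus strand) had 83 and 173 against 0 and 4 in intron 1, and 0 and 3 against 23 and 24 in intron 4.

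The remaining 3 transcripts were chosen by the same rule, so the exchange between their introns follows from the choice. ENST00000402746.1 (chromosome 7, minus strand) had 90 and 244 counts in FOX2 against 0 and 16 in intron 1, and 3 and 0 against 22 and 35 in intron 3. Its intron 9 was higher in FOX2 in WT, with 49 and 52 against 4 and 13, but had 6 and 49 against 32 and 41 in P-KO. ENST00000349830.3, on chromosome 8, had 18 and 80 against 3 and 0 in intron 3, and 3 and 0 against 27 and 61 in intron 18. In its intron 1, the most heavily covered, both proteins were abundant, with 332 and 557 counts in FOX2 and 539 and 534 in TDP43 (adjusted p = 0.704). ENST00000482119.1 (chromosome 2, plus strand) had 55 and 21 against 137 and 263 in intron 1, and 30 and 27 against 4 and 0 in intron 3.

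**Figure D5:**
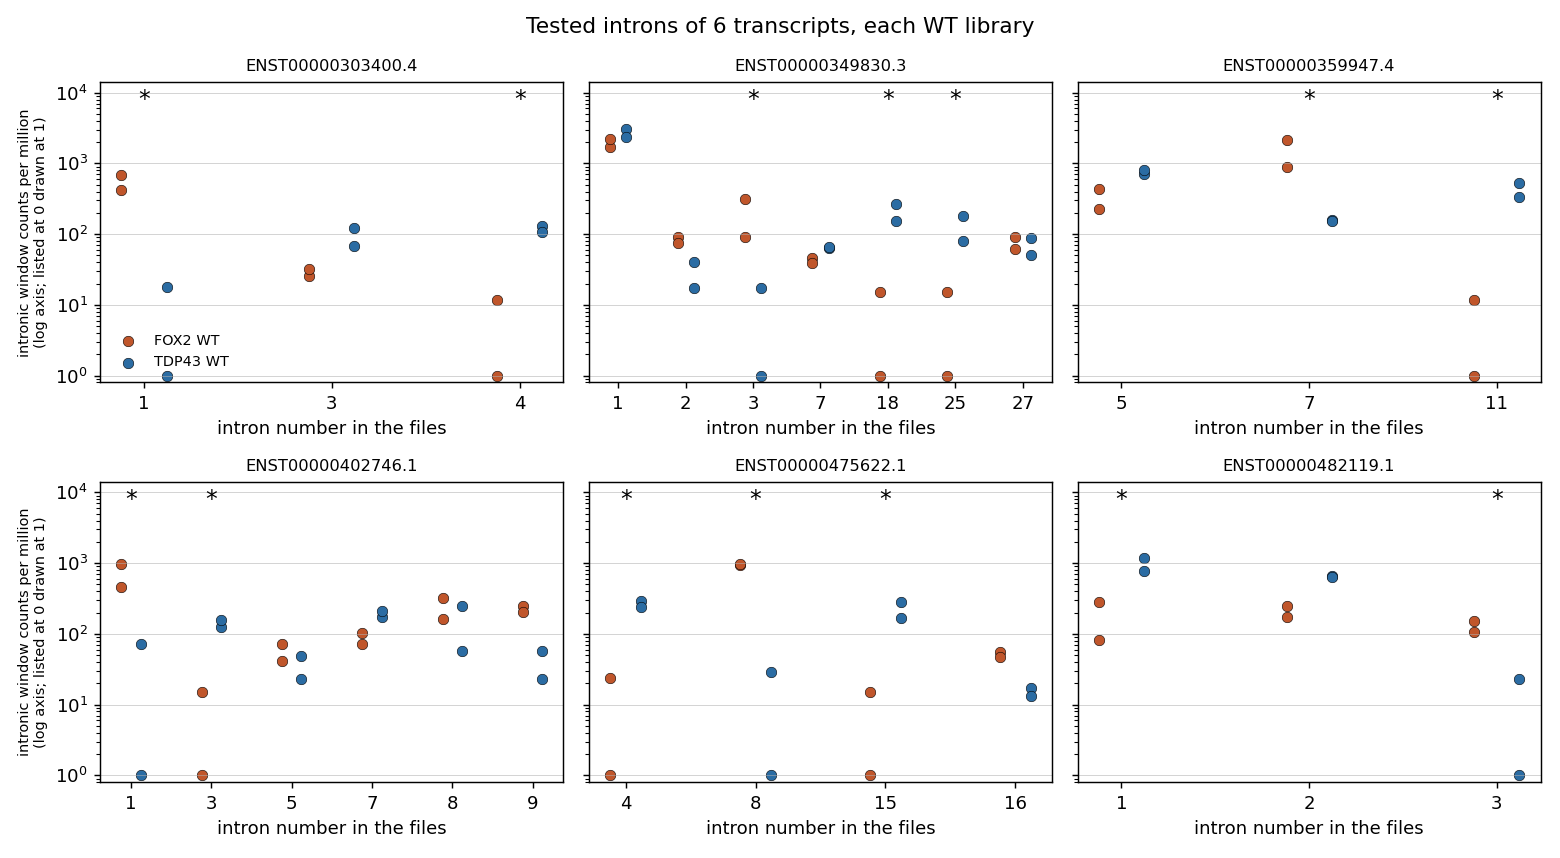
Window counts per 1000000 intronic counts of each WT library (vertical, log axis, listed at 0 drawn at 1) for the tested introns of 6 transcripts, by intron number in the files (horizontal); orange is FOX2, blue is TDP43, and stars mark introns at an unadjusted p under 0.05 in WT that were called in the same direction in P-KO. Each panel holds starred introns with FOX2 above TDP43 and starred introns with TDP43 above FOX2, which follows from how the transcripts were chosen.

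The transcripts with the largest shares of all counts were, apart from ENST00000458748.1, not among the 59. ENST00000549804.2, at chr15:25295837-25367137 on the plus strand and again in the Prader-Willi region, had 1705 and 3142 counts in FOX2 and 304 and 413 in TDP43. These were 0.934% ± 0.218 and 0.146% ± 0.000258 of window counts (SD, n = 2 each), a log2 fold change of 2.61 ± 0.43 (SE) that just missed the threshold (adjusted p = 0.0577). ENST00000513200.3, at chr5:93488832-93954113 on the minus strand, held 0.594% ± 0.0196 in FOX2 and 0.244% ± 0.143 in TDP43 (adjusted p = 0.286). ENST00000534336.1, at chr11:65266819-65273509 on the plus strand and listed without introns, held 0.288% ± 0.102 in FOX2 and 0.840% ± 0.412 in TDP43 (adjusted p = 0.150). ENST00000341776.2 (chromosome 6, plus strand) was high for both proteins, at 0.540% ± 0.0365 and 0.713% ± 0.184 (adjusted p = 0.648). The 10 highest transcripts of a library together held 5.03% and 6.87% of the window counts in FOX2 and 10.9% and 13.5% in TDP43. In P-KO these shares overlapped, at 7.54% and 9.11% in FOX2 and 5.88% and 12.2% in TDP43.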

How the data were processed

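The comparison, its transcripts and its tests were chosen with earlier results of these data known. The alignment used Bowtie and the build GRCh37 (hg19), per the submitters' processing notes, which are the only source for both. The Bowtie version is not given in the sources used here, nor is the tool that made the lists. As deposited by the authors, the data are 1 list per library, with a whole-number count per position, not normalized, and a p-value or q-value of at most 0.05, which was not used. Whether a count is of reads or of cDNAs collapsed by random barcodes is not given in the sources used here. If they are reads, copies of 1 molecule are counted separately.

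Neighbouring positions share a window of 5 nt on both sides, so positions were kept from the highest count down, at least 11 nt apart per strand. Their counts were summed per transcript (the first part of the position's name) and per intron; 0.778% of positions carried over 1 name across libraries. The 4 WT libraries were fitted with edgeR 4.0.16 in R 4.3.3 (filterByExpr, TMM, quasi-likelihood F test, Benjamini-Hochberg over all features tested, threshold 0.05). Standard errors are the log2 fold change divided by the square root of F. CPM are per 1000000 window counts of a library, or intronic window counts for introns. Alternatives were DESeq2 1.42.0, other filters, scaling, libraries, spacing and position counts, and each library left out. Replicate numbers were not treated as pairing the libraries: the labels give them no meaning, and deviations from the group means of same-numbered libraries correlated at 0.0349 (transcripts) and 0.0451 (introns). Shared positions and mitochondrial shares did move with the number. Named transcripts were, per direction, the 12 of largest fitted log2 fold change (where a protein is listed at 0 this depends on edgeR's prior count and only ranks) and the 6 of smallest p that did not overlap and had a mean count of at least 10, and the 5 of highest share per protein; others are marked as chosen after their values were seen. Shares used Python 3.11.15 with scipy 1.17.1. Gene lists, markers and sequence motifs were not used, as no hg19 annotation or genome was used here.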

Additional observations from a re-analysis of the deposited data

How the results depend on the processing

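The 59 transcripts became 335 with DESeq2, 419 without a filter on low counts, 246 with at least 20 counts in 2 libraries, 133 in a fit of the 8 FOX2 and TDP43 libraries, 90 with all 12 libraries, 118 without spacing and 195 with overlapping transcripts merged into loci, an alternative chosen after seeing the data. With the replicate number as a block, 0 transcripts passed (641 at an unadjusted p under 0.05), and with numbers of positions 0 (300 at an unadjusted p under 0.05). Leaving out 1 library gave between 0 and 322: 0 without TDP43 replicate 1 (873 at an unadjusted p under 0.05), 102 without TDP43 replicate 2, 211 without FOX2 replicate 1 and 322 without FOX2 replicate 2. The count stayed within 1.5 times of 59 without TMM (70), with edgeR's robust option (64), with 31 nt spacing (42) and without mitochondrial and GL contigs (61). None of the 30 named transcripts changed sign, but all 30 fell short of the threshold with the replicate block and without TDP43 replicate 1, 18 of 18 with numbers of positions, 7 with all 12 libraries, 4 with 31 nt spacing, 2 with 8 libraries and 1 without spacing (ENST00000458748.1). Merged into loci, 4 fell short (ENST00000441162.1, ENST00000551077.1, ENST00000558318.1 and ENST00000576217.1), with a log2 fold change of -0.04 for ENST00000441162.1, and for 17 of the 30 the log2 fold change was at least 1 smaller in size. Introns went from 0 to 406 with DESeq2, 444 without a filter, 182 with at least 20 counts in 2 libraries, 175 with all 12 libraries and 203 with 8, and were 0 under each other alternative, leaving out any library included. The difference in intron share was 22.4 points without spacing, and between 4.275 and 8.772 points with 1 library left out. The causes were not tested. Fits with 1 library left out held fewer samples but tested between 6098 and 7262 transcripts, against 4692 in the main fit. The fit of numbers of positions tested 1946. The depth limits single positions, whose mean count was between 2.76 and 3.19 in a library. Alternatives that needed sequence motifs or gene lists were not run.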

Other observations

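Counts on the mitochondrial chromosome and on an unplaced contig varied widely between libraries of 1 protein. The mitochondrial chromosome held 0.362% and 1.15% of window counts in FOX2 and 1.25% and 3.79% in TDP43, with replicate 2 above replicate 1 for both proteins. Most of it came from ENST00000387347.2, with 524 and 2601 counts in FOX2 and 1546 and 8199 in TDP43 (edgeR adjusted p = 0.421). ENST00000607521.1, on the unplaced contig GL000220, was the highest transcript of FOX2, with 1.60% ± 0.825 of window counts, and held 3.27% ± 1.90 in TDP43 (SD, n = 2 each, edgeR adjusted p = 0.517). Neither difference passed the test.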
